A study of Mus musculus with 12 samples.

Results

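The genes described here are 10 enzymes that make and modify fatty acids: Acly, Acss2, Me1, Acaca, Fasn, Elovl6, Scd1, Scd2, Fads1 and Fads2. They were picked out of the deposited count table by symbol, from a list drawn up with earlier results of these data known, and are 10 of its 17210 genes. All 10 passed the low-count filter, which kept 11177 genes for testing, but Scd1 passed only through the SREBP2 groups, with 10 counts or more in 0 of the 6 Vector and Vector+EST libraries. Poly(A) RNA was sequenced from 12 libraries of G1E-ER4 cells, 3 in each of 4 groups. G1E-ER4 is a mouse erythroid progenitor line that has no GATA1 of its own and carries a GATA1 fusion with the part of the human estrogen receptor that binds hormone, and β-estradiol (EST) turns this fusion on. All 4 groups therefore carry the fusion, and all were transduced with a retrovirus for 24 h. Vector cells received the empty virus and SREBP2 cells the active part of SREBP2 (amino acids 1 to 468), with no EST in either. Vector+EST and SREBP2+EST cells received the same viruses and EST for 6 h. The EST dose is 500 nM in one label and 200 nM in another. The labels do not say whether the libraries of a group came from separate cultures, while a figure legend of the study that covers these data among others speaks of independent experiments. The p-values measure the spread between these libraries, which may in part be technical.

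Fatty acids are built from cytosolic acetyl-CoA, which ATP-citrate lyase (Acly) makes from citrate and acetyl-CoA synthetase (Acss2) from acetate. Acetyl-CoA carboxylase (Acaca) turns it into malonyl-CoA, fatty acid synthase (Fasn) joins these units into palmitate with NADPH that malic enzyme (Me1) helps to supply, and Elovl6 lengthens palmitate to stearate. The stearoyl-CoA desaturases Scd1 and Scd2 place the first double bond, and Fads1 and Fads2 desaturate polyunsaturated chains. The transcription factors SREBP1 and SREBP2 share DNA sites, with SREBP1 best known for fatty acid genes and SREBP2 for cholesterol genes. Red cell precursors need both kinds of lipid for their membranes.

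The genes lie on 5 chromosomes of GRCm38.p6, by the RefSeq annotation. Acly (chr11:100476352-100528000), Acaca (chr11:84129635-84401651) and Fasn (chr11:120805958-120825166) are on chromosome 11. Scd2 (chr19:44293676-44306864) and Scd1 (chr19:44394450-44407709) are neighbours 87585 bases apart on chromosome 19, and Fads2 (chr19:10062765-10101503) and Fads1 (chr19:10182877-10196874) are 81373 bases apart on the same chromosome. Acss2 (chr2:155518043-155562743), Elovl6 (chr3:129532386-129638495) and Me1 (chr9:86581363-86695914) are on 3 others.

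Since most of these genes rose together with SREBP2, as described below, the promoters that could be matched were searched for the letters that SREBP and its usual partners bind. RefSeq promoter windows of 300 bases, 250 before and 50 after a start, were matched for Acly, Acss2, Acaca, Fasn, Elovl6, Fads2 and Me1, with 8 windows in all because Me1 has a pair of them. The upstream bases for Acaca (chr11:84195188-84195437) and for a window of Me1 (chr9:86687278-86687527) lie inside the annotated genes. These windows, and that of Fasn, thus belong to starts within the gene and need not be the main promoter. On both strands, 0 of the 8 windows held a sterol regulatory element written as TCACNCCAC, which 1.24% of all 32851 windows hold. So few windows hold these exact letters that 0 of 8 does not show that the promoters lack SREBP sites. Scd1, Scd2 and Fads1 had no window. Likewise 0 held the E-box CACGTG (7.15% of all windows) and 0 held the GATA motif AGATAA (11.2%). The CCAAT box, bound by NF-Y, was in 4 of the 8 windows against 37.4% of all windows, and the GC box GGGCGG, bound by Sp1, in 4 of 8 against 35.7%. Stretches of 3 of these promoters, of genes that rose with SREBP2, are shown as examples of the matches. They run 5′ to 3′ on the strand of the gene, and capitals mark the CCAAT box (CCAAT or ATTGG) and the GC box (GGGCGG or CCGCCC). Acly (chr11:100528001-100528250, minus strand) has 4 GC boxes in the stretch, Acss2 (chr2:155517793-155517947, plus strand) has 3 GC boxes, and Fasn (chr11:120824548-120824797, minus strand, inside the outer end of the annotated gene) has 3 CCAAT boxes, of which a pair on opposite strands share bases.
Acly: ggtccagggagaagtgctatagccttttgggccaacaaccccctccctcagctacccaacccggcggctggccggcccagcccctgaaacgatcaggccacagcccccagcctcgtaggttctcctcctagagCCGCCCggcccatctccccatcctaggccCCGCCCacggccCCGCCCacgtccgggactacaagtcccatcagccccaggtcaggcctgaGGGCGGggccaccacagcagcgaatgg
Acss2: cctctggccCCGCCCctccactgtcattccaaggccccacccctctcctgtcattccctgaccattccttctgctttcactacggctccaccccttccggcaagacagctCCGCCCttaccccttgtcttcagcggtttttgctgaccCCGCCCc
Fasn: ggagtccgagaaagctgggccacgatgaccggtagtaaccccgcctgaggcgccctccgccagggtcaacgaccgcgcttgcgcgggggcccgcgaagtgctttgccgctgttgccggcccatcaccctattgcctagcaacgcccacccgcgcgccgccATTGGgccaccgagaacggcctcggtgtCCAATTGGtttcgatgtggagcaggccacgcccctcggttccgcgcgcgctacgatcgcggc

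Library totals ran from 18700959 to 19152281 estimated counts. Levels are given in CPM, the count relative to the TMM-scaled library total, with libraries in the order of the numbers in the table's header, which are Vector 1, 4 and 5, Vector+EST 1, 3 and 5, SREBP2 1, 3 and 5, and SREBP2+EST 1, 2 and 5. All 15 erythroid markers were over 1 CPM, and their sum was 11498 to 12002 CPM in Vector and 8529 to 9829 CPM in the other 9 libraries. The labels also name embryonic stem cells, but of 8 markers of that type 5 are in the table and 0 reached 1 CPM. Hepatocyte markers, of which 5 of 8 are in the table, likewise had 0 members over 1 CPM, and of 6 adipocyte markers in the table only Lpl passed 1 CPM (62.5 to 95.5 CPM) while Adipoq was at 0 in 10 libraries. The neural list (12 of 12 in the table, 6 over 1 CPM) summed to 182 to 250 CPM, most of it Mbp, and macrophage markers (8 of 8, 1 over 1 CPM) to 2.05 to 5.25 CPM. Fibroblast markers (9 of 10, 7 over 1 CPM) summed to 20.6 to 21.4 CPM in Vector, 6.12 to 36.5 in Vector+EST, 5.40 to 7.53 in SREBP2 and 18.8 to 35.2 in SREBP2+EST, with Lum at 0 in 11 libraries. Their part in the results was not tested, and in bulk RNA fewer cells of a type cannot be told apart from less RNA per cell.

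A pair of libraries, SREBP2 1 and SREBP2+EST 1, stood apart from their groups over all genes, with a chi-square per gene of 6.06 to 10.3 against the other libraries of their groups, while other pairs of replicates were at 1.80 to 3.24. In the fatty acid genes they lay nearer the other group than their own. For 9 of the 10 fatty acid genes, all but Scd2, SREBP2 library 1 was nearer the mean of SREBP2+EST libraries 2 and 5 than that of SREBP2 libraries 3 and 5. For 10 of 10 genes SREBP2+EST library 1 was nearer SREBP2 libraries 3 and 5. Acly shows it plainly, at 1197 CPM in SREBP2 library 1 and 1362 CPM in SREBP2+EST library 1, against means of 1358 CPM in SREBP2 3 and 5 and 1177 CPM in SREBP2+EST 2 and 5. The marker sums did not all go one way. The fibroblast sums lay with the labels, at 5.40 CPM in SREBP2 library 1 beside 7.53 and 6.35 CPM in SREBP2 3 and 5, and at 21.2 CPM in SREBP2+EST library 1 beside 35.2 and 18.8 CPM in SREBP2+EST 2 and 5, but they also ran from 6.12 to 36.5 CPM within Vector+EST. The neural sums lay with the other group, at 212 CPM in SREBP2 library 1 beside 250 and 229 CPM in SREBP2 3 and 5, and at 230 CPM in SREBP2+EST library 1 beside 201 and 206 CPM in SREBP2+EST 2 and 5. The erythroid sum of SREBP2 library 1, 8652 CPM, was under the 9459 and 9829 CPM of SREBP2 3 and 5, while that of SREBP2+EST library 1, 9147 CPM, lay between the 8529 and 9305 CPM of SREBP2+EST 2 and 5. The labels were kept, but whether these libraries carry each other's labels cannot be told from the files, which bears on each value below that sets SREBP2+EST against SREBP2, the interaction included. The calls of the 10 genes in comparisons that use these libraries, and the counts of the other lists with SREBP2, are given with and without both libraries. Other values are from all 12 libraries.

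Over all 11177 tested genes, the mean log2 CPM of SREBP2 cells was nearer that of Vector+EST than that of Vector for 78.5%, and that of SREBP2+EST for 80.3% (76.1% and 80.9% without both libraries 1). Of the 10 fatty acid genes, 1 was nearer Vector+EST and 9 nearer Vector in both SREBP2 groups. The 9 include Scd1, whose levels in both Vector groups were near the floor and overlapped, so its place is not a result. Where the SREBP2 groups lie above both Vector groups, nearness only restates the direction of the EST effect in Vector cells. Whether the GATA1 fusion was inactive in SREBP2 cells without EST cannot be read from these libraries. By immunoblot, the study found the fusion protein in the nucleus when SREBP2 was overexpressed without EST. Any part of the fusion in the SREBP2 comparisons below was not tested.

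**Figure D1:**
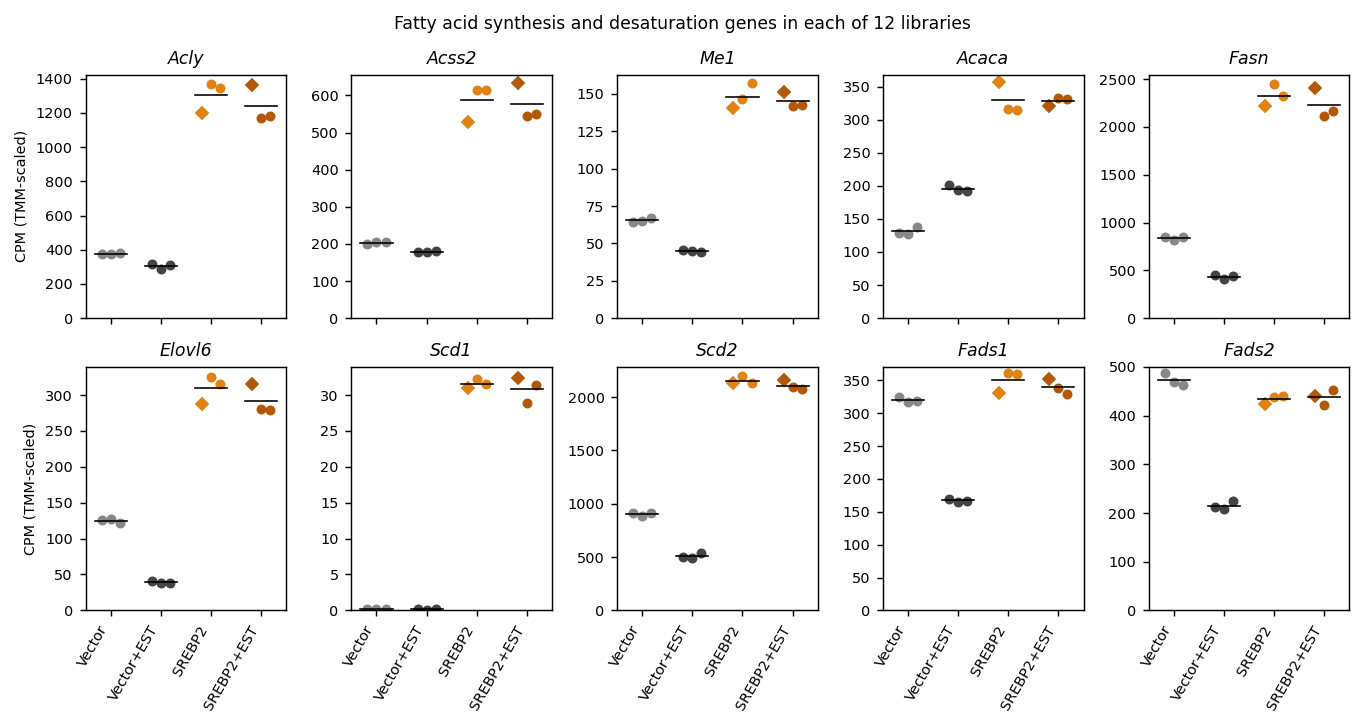
CPM after TMM scaling (y axis, from 0, a scale for each gene) of the 10 genes in each of the 12 libraries, by group, with a line at the mean of 3 libraries and diamonds for library 1 of SREBP2 and of SREBP2+EST. Every gene but Acaca and Scd1 is lowest in Vector+EST, Scd1 is near 0 in both Vector groups, and the SREBP2 groups overlap in all 10.

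Srebf2, the mouse gene of SREBP2, was examined first. Srebf2 was at 370, 358 and 355 CPM in Vector libraries and 436, 432 and 456 CPM in those of Vector+EST. It was at 815, 837 and 797 CPM with SREBP2 alone, and at 814, 801 and 809 CPM in SREBP2+EST. All 6 libraries with added SREBP2 were above the other 6, and the count does not separate the cell's own transcript from any reads of the added one. The study measured the added SREBP2 as a human transcript in G1E-ER4 cells, so the level of this mouse gene is not that of the added factor. Srebf1, the gene of SREBP1, was at 145 to 150 CPM in Vector and 164 to 181 CPM in SREBP2, a log2 fold change of 0.25 ± 0.05 (SE, edgeR quasi-likelihood adjusted p = 0.000106). With EST it rose by 0.32 ± 0.05 on the log2 scale (edgeR adjusted p = 5.95e-05).

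The comparison of SREBP2 with Vector cells without EST asked how these genes differ when active SREBP2 is added and no EST is given. Of the 10 genes, 9 rose and 1 (Fads2) fell, while 37.7% of all tested genes rose and 33.8% fell. Over all genes, 4214 rose and 3773 fell with the main scaling. When libraries were scaled by their totals alone, 3773 rose and 4213 fell, and of the 10 genes 8 rose and 1 fell. The median log2 fold change of the 10 was 1.32, beside 0.03 for all genes tested. Scd1, which entered the test only through the SREBP2 groups, had to differ, and of the other 9 genes 8 rose and 1 fell (median 1.31). Acetyl-CoA supply, chain building and the stearoyl-CoA desaturases rose by 1.18 or more on the log2 scale, and the polyunsaturated desaturases moved by 0.13 (Fads1) and -0.12 (Fads2).

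Among the genes of acetyl-CoA and NADPH supply, Acly was at 378, 373 and 379 CPM in Vector and 1197, 1370 and 1347 CPM in SREBP2. The groups did not overlap, and the rise was 3.47-fold (log2 fold change 1.79 ± 0.06 SE, edgeR adjusted p = 2.00e-13). Acss2 was at 200, 204 and 206 CPM in Vector and 529, 615 and 616 CPM in SREBP2, again without overlap (log2 fold change 1.53 ± 0.06, edgeR adjusted p = 2.19e-12). Me1 went from 64.1, 65.1 and 67.3 CPM to 140, 146 and 157 CPM, with all SREBP2 libraries higher (log2 fold change 1.18 ± 0.05, edgeR adjusted p = 1.92e-12).

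Of the enzymes that build the chain, Acaca was at 128, 128 and 138 CPM in Vector and 357, 316 and 314 CPM in SREBP2. It rose by 1.33 ± 0.05 on the log2 scale (edgeR adjusted p = 9.19e-13), with library 1 the highest of SREBP2, where the genes above had it lowest. Fasn was at 853, 817 and 847 CPM in Vector and 2215, 2447 and 2321 CPM in SREBP2. The groups were far apart, at a log2 fold change of 1.47 ± 0.05 (edgeR adjusted p = 4.03e-13). Elovl6 rose from 126, 128 and 122 CPM to 288, 325 and 316 CPM (log2 fold change 1.31 ± 0.05, edgeR adjusted p = 2.67e-12).

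Both stearoyl-CoA desaturases rose, from very different levels. Scd2 was at 910, 887 and 909 CPM in Vector and 2132, 2201 and 2131 CPM in SREBP2, a rise of 1.26 ± 0.03 on the log2 scale (edgeR adjusted p = 2.33e-14). Scd1 was at 0.154, 0.153 and 0.256 CPM in Vector, which is 3.13 to 5.14 estimated counts and so at or just above the floor of 3 counts per library. In SREBP2 it was at 31.0, 32.2 and 31.6 CPM, 582 to 595 estimated counts. The summed counts of the 3 libraries, 11 against 1762, gave a ratio of 168 with a 95% exact counting interval from 93.9 to 338. That interval covers counting error only. The fitted log2 fold change was 7.35, a value that depends on the prior count this close to 0 counts, and its call is no evidence beyond these levels. As a share of Scd1 and Scd2 CPM together, Scd1 was 0.0217% ± 0.0063 (SD, n = 3) in Vector, 0.0295% ± 0.0167 in Vector+EST, 1.45% ± 0.0129 in SREBP2 and 1.44% ± 0.0673 in SREBP2+EST. Scd2 thus stayed the main stearoyl-CoA desaturase transcript in all 12 libraries. Of the 50-base stretches in Scd1 transcripts, 4.56% also occur in transcripts of other genes, mainly Scd3, Scd2 and Scd4. Scd3 (0.564 to 2.69 CPM) and Scd4 (1.75 to 3.29 CPM) were low in all 12 libraries, and how the authors' counting shared such reads was not tested.

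The polyunsaturated desaturases hardly moved without EST, and in opposite directions. Fads1 was at 324, 317 and 318 CPM in Vector and 331, 361 and 359 CPM in SREBP2. Its 1.10-fold rise (log2 fold change 0.13 ± 0.04, edgeR adjusted p = 0.00653) missed the threshold when libraries were scaled by their totals alone (adjusted p = 0.0750), without Vector library 4 (adjusted p = 0.104) and without Vector library 5 (adjusted p = 0.0909). Fads2 was at 487, 468 and 464 CPM in Vector and 423, 439 and 440 CPM in SREBP2. It fell by 0.12 ± 0.04 on the log2 scale (edgeR adjusted p = 0.00847), the SREBP2 libraries all lying under the lowest Vector library.

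Without library 1 of SREBP2 and of SREBP2+EST, the same 9 genes were higher and Fads2 lower, beside 34.3% of genes higher and 36.4% lower in that fit. The log2 fold changes were then 1.81 for Acly, 1.56 for Acss2, 1.17 for Me1, 1.22 for Acaca, 1.47 for Fasn, 1.32 for Elovl6, 1.22 for Scd2, 7.32 for Scd1, 0.13 for Fads1 and -0.15 for Fads2.

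The same comparison in EST-treated cells asked how the genes differ with SREBP2 when both groups receive EST. All 10 genes rose, 9 of them apart from Scd1, against 14% of tested genes that rose and 7.94% that fell, and the median was 1.86 on the log2 scale beside -0.0048 for all genes (1.69 for the 9 without Scd1). Over all genes, 1560 rose and 888 fell with the main scaling, and 1292 rose and 1768 fell when libraries were scaled by their totals alone. All 10 fatty acid genes were higher under both.

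Elovl6 had the widest gap after Scd1, at 40.3, 38.8 and 38.6 CPM in Vector+EST and 316, 281 and 279 CPM in SREBP2+EST. That is 7.44-fold, or 2.90 ± 0.06 on the log2 scale (edgeR adjusted p = 2.40e-15). Fasn went from 449, 405 and 439 CPM to 2412, 2117 and 2165 CPM (log2 fold change 2.37 ± 0.05, edgeR adjusted p = 6.22e-15). Scd2 went from 499, 492 and 535 CPM to 2160, 2091 and 2077 CPM (log2 fold change 2.05 ± 0.04, edgeR adjusted p = 5.24e-16). The groups did not overlap for any of these 3 genes.

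Acly rose from 314, 290 and 310 CPM to 1362, 1172 and 1183 CPM (log2 fold change 2.02 ± 0.06, edgeR adjusted p = 1.89e-13). Acss2 rose from 178, 179 and 180 CPM to 634, 544 and 550 CPM (1.69 ± 0.06, edgeR adjusted p = 3.25e-12), and Me1 from 45.6, 44.8 and 44.0 CPM to 151, 142 and 142 CPM (1.69 ± 0.05, edgeR adjusted p = 1.37e-13). In all 3 supply genes library 1 was the highest of SREBP2+EST. Acaca had the smallest rise of the 10, from 201, 194 and 193 CPM to 320, 332 and 330 CPM (0.74 ± 0.05, edgeR adjusted p = 6.36e-09).

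Fads1 and Fads2 both rose here. Fads1 was at 170, 165 and 167 CPM in Vector+EST and 351, 338 and 329 CPM in SREBP2+EST (log2 fold change 1.02 ± 0.04, edgeR adjusted p = 7.73e-12). Fads2 was at 213, 209 and 224 CPM and at 440, 422 and 452 CPM (1.03 ± 0.04, edgeR adjusted p = 5.12e-12). Scd1 was at 0.206, 0.0523 and 0.159 CPM in Vector+EST (1.03 to 4.18 estimated counts) and 32.3, 28.9 and 31.3 CPM in SREBP2+EST. Its summed counts, 9 against 1715, gave a ratio of 197 with a 95% exact counting interval from 103 to 431. Without both libraries 1 all 10 genes were again higher, while 16.8% of the genes tested in that fit were higher and 14% lower. The log2 fold changes were then 2.83 for Elovl6, 2.31 for Fasn, 2.03 for Scd2, 1.95 for Acly, 1.66 for Me1, 1.61 for Acss2, 1.02 for Fads2, 0.99 for Fads1, 0.76 for Acaca and 7.69 for Scd1.

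**Figure D2:**
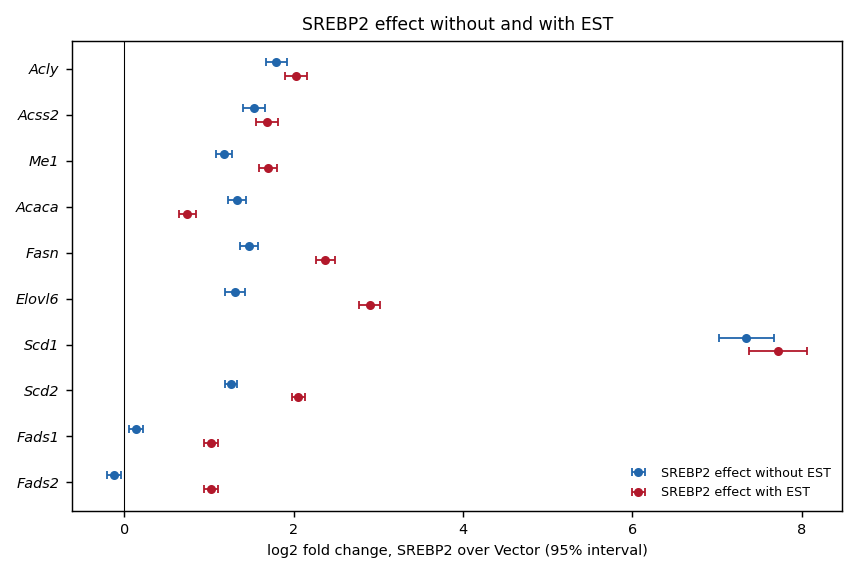
Log2 fold change of SREBP2 over Vector cells (x axis) with its 95% interval for each of the 10 genes, without EST in blue and with EST in red, filled where the edgeR adjusted p was under 0.05. Scd1 lies at 7.35 and 7.72, Fads1 and Fads2 lie beside 0 without EST and at 1.02 and 1.03 with it, and Acaca has the larger value without EST.

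The comparison of Vector+EST with Vector asked how these genes differ after EST, which turns the GATA1 fusion on, in cells without added SREBP2. All groups carry the fusion, so other actions of EST cannot be told apart here from those of GATA1. Of the 10, 8 fell and Acaca rose, while 35.5% of all tested genes fell and 35.2% rose. The median of the 10 was -0.69 on the log2 scale, and -0.83 without Scd1, beside 0.01 for all genes. Elovl6 fell most, from 122 to 128 CPM in Vector to 38.6 to 40.3 CPM (log2 fold change -1.67 ± 0.06, edgeR adjusted p = 6.96e-13). Fads2 followed, from 464 to 487 CPM down to 209 to 224 CPM (-1.14 ± 0.04, edgeR adjusted p = 4.79e-13).

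Fasn (-0.96 ± 0.05, edgeR adjusted p = 9.35e-11), Fads1 (-0.93 ± 0.04, edgeR adjusted p = 6.15e-12) and Scd2 (-0.83 ± 0.03, edgeR adjusted p = 4.69e-12) came next on the log2 scale. The supply enzymes fell less. Me1 fell by 0.55 ± 0.05, Acly by 0.31 ± 0.06 and Acss2 by 0.19 ± 0.06 on the log2 scale (edgeR adjusted p = 6.41e-08, 0.000221 and 0.0141). For all 8 the libraries of the groups did not overlap.

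Acaca went the other way, from 128 to 138 CPM in Vector to 193 to 201 CPM in Vector+EST (log2 fold change 0.58 ± 0.05, edgeR adjusted p = 2.93e-08). It was the 1 member whose direction with EST was opposite to that of Fasn, the next enzyme of the pathway. Of the 50-base stretches in Acaca transcripts 30.4% also occur in transcripts of other genes, mainly the predicted gene Gm5182. Such reads make its count less certain, and Me1 shares 28.3% of its stretches in the same way, mainly with Gm7049. Acly, Fasn and Fads1 shared 0 of theirs. Scd1, at 0.139 ± 0.0789 CPM in Vector+EST, was too low to show a change (edgeR adjusted p = 0.572).

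In SREBP2 cells the same EST treatment gave no call among the 10 genes (0 higher and 0 lower in all 11177 genes, or 0%). At an unadjusted p under 0.05 edgeR counted 506 genes, and DESeq2 called 12. Log2 fold changes of the 10 ran from -0.09 (Elovl6, 95% interval -0.195 to 0.0246) to 0.01 (Fads2, -0.0669 to 0.0954), and the groups overlapped for all 10. Acly was at 1197, 1370 and 1347 CPM in SREBP2 and 1362, 1172 and 1183 CPM in SREBP2+EST, with library 1 of each group nearer the other group's remaining libraries.

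Without both libraries 1, 5 of the 10 genes were called lower with EST in SREBP2 cells, while 7.7% of the 11292 genes tested in that fit were lower and 6.18% higher. These were Acly (log2 fold change -0.20, edgeR adjusted p = 0.000642), Elovl6 (-0.19, adjusted p = 0.000983), Acss2 (-0.17, adjusted p = 0.00123), Fasn (-0.15, adjusted p = 0.0155) and Fads1 (-0.11, adjusted p = 0.0376). Me1 (-0.09, adjusted p = 0.142), Scd2 (-0.05, adjusted p = 0.369), Acaca (0.07, adjusted p = 0.237) and Fads2 (-0.0049, adjusted p = 0.959) were not called, nor was Scd1 (-0.08, adjusted p = 0.568). The libraries left out were picked after they were seen to lie nearer the other group in these same genes, so leaving them out widens the gap by construction. These calls are a description and support no EST effect. With 2 libraries left in each of these groups, the spread was estimated together with the Vector groups.

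**Figure D3:**
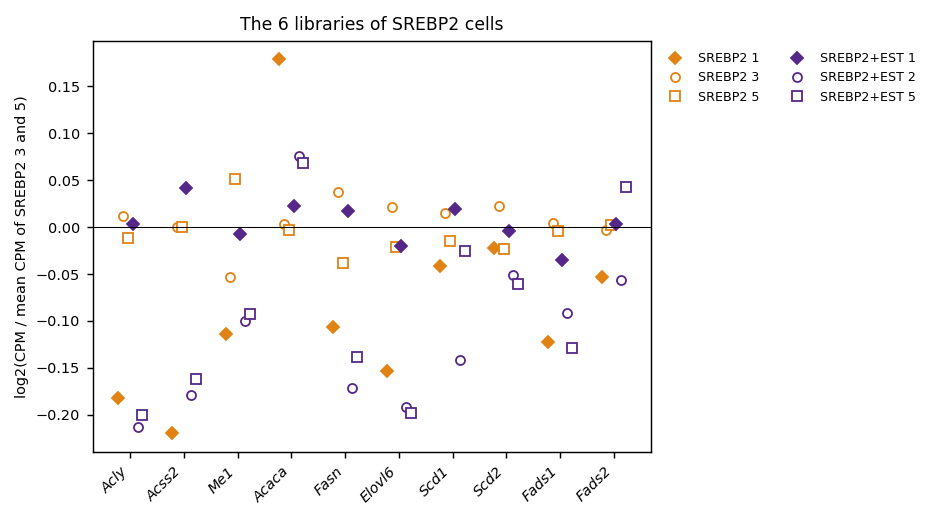
Log2 of the CPM of each library of SREBP2 cells over the mean CPM of SREBP2 libraries 3 and 5 (y axis) for each of the 10 genes, orange without EST and purple with EST, filled diamonds for libraries numbered 1. For Acly the orange diamond lies at the level of the purple open points and the purple diamond at that of the orange open points.

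Whether EST acted differently in SREBP2 cells than in Vector cells was tested as an interaction. The test passed for 8 of the 10 genes, 7 with a positive value and Acaca with a negative one, while 29.8% of tested genes were positive and 29.2% negative. The 7 fell with EST in Vector cells and Acaca rose there, and none of the 8 was called for EST in SREBP2 cells with all libraries. For the 7, a positive value thus marks a fall that was smaller or absent with SREBP2, not a stronger EST effect. The largest value was that of Elovl6, 1.59 ± 0.08 on the log2 scale (edgeR adjusted p = 1.13e-10), followed by Fads2 at 1.15 ± 0.05, Fasn at 0.90 ± 0.07, Fads1 at 0.89 ± 0.06 and Scd2 at 0.80 ± 0.05. Me1 (0.52 ± 0.07) and Acly (0.23 ± 0.08) differed by less, and Acaca differed by -0.58 ± 0.07. Acly lost its call without Vector+EST library 3 (adjusted p = 0.0705) or without SREBP2+EST library 1 (adjusted p = 0.0627). Acss2 (0.16, adjusted p = 0.125) did not pass, except without SREBP2+EST library 2 (adjusted p = 0.0453). Without both libraries 1 the same 8 genes passed, Elovl6 at 1.52 and Acly at 0.14, beside 31.3% of genes positive and 25.8% negative in that fit. The comparisons share groups with each other, so their values stand side by side and were not correlated.

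**Figure D4:**
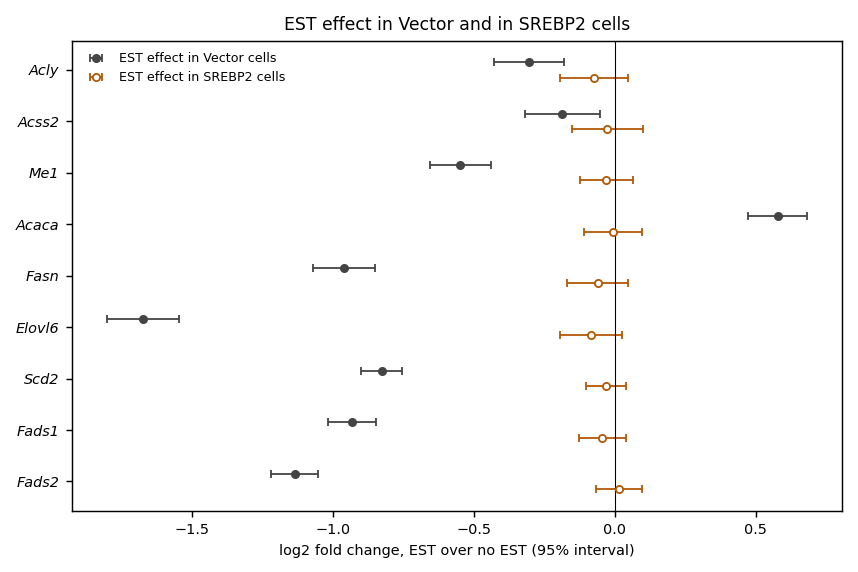
Log2 fold change of EST-treated over untreated cells (x axis) with its 95% interval, in Vector cells (grey) and SREBP2 cells (brown), filled where the edgeR adjusted p was under 0.05. Scd1 is left out because its Vector level is near the floor. The grey points run from -1.67 for Elovl6 to 0.58 for Acaca and the brown points from -0.09 for Elovl6 to 0.01 for Fads2.

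Per length, the order of the 10 transcripts changed between groups. CPM were divided by the length in kb of the principal GENCODE transcript for this. In Vector, Scd2 was highest at 165 ± 2.33 CPM per kb (SD, n = 3), then Fads2 at 150 ± 3.84, Fads1 at 92.4 ± 1.12, Acly at 85.1 ± 0.724 and Fasn at 83.5 ± 1.92. The libraries of Acly and Fasn overlapped, as did those of Elovl6 (21.0 ± 0.529) and Me1 (19.9 ± 0.487) further down, and other neighbours in this order did not overlap. Acss2 stood between these at 69.4 ± 1.10, Acaca at 13.8 ± 0.619 and Scd1 at 0.0388 ± 0.0123 CPM per kb.

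In Vector+EST the first places went to Scd2 (93.2 ± 4.29 CPM per kb), Acly (68.8 ± 2.90) and Fads2 (68.3 ± 2.58), the last 2 of which overlapped, and Elovl6 dropped to the ninth place at 6.59 ± 0.154. In SREBP2 the order was Scd2 (395 ± 7.28 CPM per kb), Acly (295 ± 21.2), Fasn (232 ± 11.5), Acss2 (200.1 ± 17.1), Fads2 (138 ± 2.92) and Fads1 (101 ± 4.90), with no overlap between neighbours. SREBP2+EST had the same order of all 10, with Fasn (222 ± 15.7) and Acss2 (196 ± 17.1) overlapping. Scd1 was last in all 4 groups, at 6.54 ± 0.129 CPM per kb in SREBP2 and 6.39 ± 0.363 in SREBP2+EST.

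Genes whose log2 CPM followed Fasn most closely over the 12 libraries were Hmgcs1, the synthase of HMG-CoA in the sterol pathway (Pearson r = 0.9993), Scd2 (0.9989), the mitochondrial citrate carrier Slc25a1 (0.998), Zdhhc9 (0.996) and Map7d1 (0.996). Hmgcs1 was at 750 ± 9.60 CPM in Vector, 425 ± 7.03 in Vector+EST, 1786 ± 50.0 in SREBP2 and 1726 ± 78.8 in SREBP2+EST. For Scd1 the closest were the sterol enzymes Lss (0.998), Tm7sf2 (0.997) and Pmvk (0.997), the chloride transporter Clcn6 (0.997) and the tubulin Tubb2b (0.997). Scd1 is near the floor in 6 of the 12 libraries, where its log2 CPM depends on the prior count, so the order of these 5 genes is not a result. Lss was at 186 ± 3.03 CPM in Vector, 177 ± 6.23 in Vector+EST, 1055 ± 37.5 in SREBP2 and 1040 ± 44.1 in SREBP2+EST. These values describe 12 libraries that fall into groups, among 9628 genes compared.

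The counts of the other lists below stand beside the shares of all tested genes given above. With SREBP2 these were 37.7% higher and 33.8% lower without EST, and 14% higher and 7.94% lower with EST, and no list was tested against them. Without both libraries 1, an alternative chosen for these lists after seeing the data, each count of genes that rose or fell with SREBP2 moved by 1 at most. The log2 fold changes of the genes named from the lists moved by at most 0.20 (Elovl7, without EST). The cholesterol genes are the nearest other list. Without EST 20 of 20 rose with SREBP2 (median log2 fold change 1.64), and with EST 20 of 20 rose (median 1.92), compared with 8 and 9 of the 9 fatty acid genes other than Scd1. With EST in Vector cells 14 of 20 cholesterol genes fell and 2 rose (median -0.24), and 8 of the 9 fatty acid genes fell (median -0.83). Of all tested genes 35.5% fell and 35.2% rose in that comparison. The difference between the lists was not tested. Tm7sf2, a sterol reductase, rose from 22.2 ± 1.77 to 179 ± 9.22 CPM without EST and from 20.2 ± 1.18 to 178 ± 6.23 CPM with it, log2 fold changes of 3.01 and 3.14. The sterol isomerase Ebp rose by 2.98 without EST, and the mevalonate pathway kinase Pmvk rose by 2.67 with EST, on the log2 scale.

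Of 16 tested genes that supply carbon and NADPH, 11 rose and 2 fell with SREBP2 without EST (all genes 37.7% and 33.8%), and 7 rose and 3 fell with EST (all genes 14% and 7.94%). The median log2 fold change was 0.26 without and 0.10 with EST. Idh1, which makes cytosolic NADPH, was at 48.1 ± 1.65 CPM in Vector and 304 ± 8.10 CPM in SREBP2 (log2 fold change 2.66, and 2.34 with EST), and Acat2, an acetyl-CoA acetyltransferase, rose by 1.53 and 1.80. Among 16 other elongation and desaturation genes, 10 rose and 2 fell without EST and 10 rose and 0 fell with it. Tecr and Hsd17b12, reductases of the elongation cycle that Elovl6 starts, rose by 1.27 and 1.05 without EST and by 1.41 and 1.17 with EST. Hacd3, a dehydratase of that cycle, was at 55.5 ± 2.42 CPM in Vector and at 152 ± 5.42, 162 ± 4.62 and 165 ± 3.81 CPM in Vector+EST, SREBP2 and SREBP2+EST. It and Elovl7 rose without EST (1.54 and 1.66) and were not called with EST (0.11 and 0.02), although Hacd3 was without both libraries 1 (0.12, edgeR adjusted p = 0.0289), and both also rose with EST in Vector cells (1.46 and 1.64).

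Of 8 other synthase and carboxylase genes, 2 rose and 4 fell without EST (all genes 37.7% and 33.8%), and 1 rose with it (all genes 14%), numbers too small to set this list apart from all genes. Hlcs, which attaches biotin to carboxylases, fell by 0.97 on the log2 scale without EST (and by 1.04 with EST in Vector cells), and Mid1ip1, an activator of acetyl-CoA carboxylase, rose by 0.79 without and 0.39 with EST. Of 11 acyl-CoA synthetase and binding genes, 9 rose and 1 fell without EST and 6 rose with EST. Acsl3 had the pattern of Fasn, at 84.7 ± 1.96 CPM in Vector, 35.3 ± 0.896 in Vector+EST, 140 ± 2.06 in SREBP2 and 136 ± 5.21 in SREBP2+EST, with log2 fold changes of 0.73 without and 1.95 with EST. Acsl1 rose by 0.57 and 1.44, Acsl4 by 1.38 and 0.97, all on the log2 scale. The acyl-CoA binding protein Dbi rose from 117 ± 3.41 to 269 ± 16.7 CPM without EST and by 1.12 on the log2 scale with EST.

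Of 26 glycerolipid and phospholipid genes, 16 rose and 7 fell without EST (all genes 37.7% and 33.8%), and 11 rose and 0 fell with EST (all genes 14% and 7.94%). The phosphatidate phosphatase Lpin1 rose by 3.30 without and 1.29 with EST, the choline phosphotransferase Chpt1 by 2.80 and 0.38, and Pcyt2, of phosphatidylethanolamine synthesis, by 1.29 and 1.14. With EST in Vector cells Lpin1 rose by 2.01, Chpt1 by 2.45 and Pcyt2 by 0.15, so their Vector+EST levels were already above Vector. Of 21 fatty acid oxidation genes, 10 rose and 6 fell without EST, and 5 rose and 2 fell with it. With medians of 0.04 and -0.01 on the log2 scale, these counts lie near the shares of all genes (37.7% and 33.8%, then 14% and 7.94%) and are no result about the list. Cpt1c (1.11) and Etfdh (0.94) rose without EST, as they did with EST in Vector cells (1.41 and 0.91), and Acadl rose by 0.43 on the log2 scale with it. Of 18 regulators, 10 rose and 3 fell without EST (all genes 37.7% and 33.8%), and 4 rose and 3 fell with it (all genes 14% and 7.94%), with medians of 0.18 and -0.02 on the log2 scale. Insig2, which holds SREBP in the endoplasmic reticulum, rose by 1.31 without EST and was not called with it (0.02), and it rose by 1.33 with EST in Vector cells.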

How the data were processed

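The deposited values are the authors' estimated counts, raw and per gene, for 17210 genes in 12 libraries. Per the labels and methods, poly(A) RNA was read on a BGI platform, and the submitters' processing notes name HISAT2 2.0.4, Bowtie2 2.2.5, RSEM 1.2.12, DESeq2 1.4.5 and GRCm38.p6, without giving their roles. The expected counts (66.5% of values whole) were rounded. RSEM-like counts share reads between similar genes by estimate. A second deposited table, the authors' own log2 fold changes and p-values per transcript, was not used.

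Groups came from the sample titles. Genes passing filterByExpr in edgeR 4.0.16 (R 4.3.3) were scaled by TMM and tested by the quasi-likelihood F-test with all 12 libraries in 1 fit, with Benjamini-Hochberg adjustment over 11177 genes and a threshold of 0.05. SE is the log2 fold change over the square root of F. Totals of 18700959 to 19152281 put 3 counts at 0.153 to 0.163 CPM. The procedure was tested on simulated data for EST in Vector cells only. No 2 libraries of the same group agreed within counting error, the chi-square per gene of replicate pairs running from 1.80 to 3.24, and from 6.06 to 10.3 for pairs with SREBP2 library 1 or SREBP2+EST library 1. Lengths and shared stretches of 50 bases came from GENCODE M21, promoters from RefSeq GRCm38.p6, searched with Python 3.11.15. Alternatives were DESeq2 1.42.0, other scalings and filters, only the compared libraries, a replicate block, left-out libraries and a 1.5-fold criterion.

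The 10 genes and the other lists were chosen with earlier results of these data known. All 10, Srebf2 and Srebf1 were named whatever their values, as were the 2 genes with the largest called change at a mean log2 CPM of at least 1 in each other list, for SREBP2 without and with EST, and the 5 genes most like Fasn and Scd1 by Pearson r. A gene that this rule names is not reported here. Header numbers are not the replicate numbers of the titles, and over 13 pairs of libraries with the same header number the correlation of deviations ran from -0.174 to 0.0674, so they were not taken as pairs.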

Additional observations from a re-analysis of the deposited data

Results flagged for a closer look

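The EST effect differed between SREBP2 and Vector cells by a test of the difference itself (edgeR interaction) for 8 fatty acid genes and Srebf2. Of all tested genes 29.8% had a positive and 29.2% a negative difference, so a call alone does not set these genes apart. Among the fatty acid genes, a positive difference went with a fall in Vector cells and no call in SREBP2 cells with all libraries. On the log2 scale, the effect in SREBP2 cells minus that in Vector cells was 1.59 for Elovl6, 1.15 for Fads2, 0.90 for Fasn, 0.89 for Fads1, 0.80 for Scd2, 0.52 for Me1 and 0.23 for Acly, and -0.58 for Acaca. For Srebf2 it was -0.31 (edgeR adjusted p = 3.86e-05), a gene whose count in SREBP2 cells may include reads of the introduced fragment, which was not tested. Without library 1 of SREBP2 and of SREBP2+EST the value for Srebf2 was -0.27, and Srebf1 then passed as well at 0.15 (adjusted p = 0.0324). Beyond the chi-square values and the fits with libraries left out, groups of 3 libraries were not tested for single outlying libraries.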

How the results depend on the processing

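Of 1182 log2 fold changes of the 10 genes, Srebf2 and Srebf1 recomputed under the alternatives, 1151 kept their direction and their side of the threshold, 8 lost the call, 7 gained one and 16 changed sign. All sign changes were in the EST effect in SREBP2 cells, where no gene was called with all libraries. With 1 library left out in turn, the log2 fold changes there ran from -0.10 to 0.010 for Acss2, -0.037 to 0.056 for Acaca, -0.012 to 0.036 for Fads2, -0.066 to 0.017 for Me1, -0.068 to 0.0071 for Scd1, -0.031 to 0.0044 for Srebf2 and -0.0074 to 0.062 for Srebf1. Without both libraries 1 of SREBP2 and SREBP2+EST, they were 0.074 for Acaca and -0.0049 for Fads2, and the count of called genes went from 0 to 5, all 5 lower, where the libraries left out were picked on these same genes. A fold over 1.5 left 5 genes for EST in Vector cells (0 higher, 5 lower), 8 higher and 0 lower for SREBP2 without EST, and 5 for the interaction (0 lower). Leaving out 1 library gave 7 to 9 genes for the interaction and 9 or 10 for SREBP2 without EST.

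With the header number as a replicate block, Fads1 (adjusted p = 0.0907) and Fads2 (adjusted p = 0.0542) lost their calls for SREBP2 without EST, leaving 0 genes lower, and Acly lost its call in the interaction (adjusted p = 0.0634). Acss2 (0.032) and Scd1 (0.017) changed sign for EST in SREBP2 cells. Over all genes the block took the calls for SREBP2 with EST from 2448 to 1208. The header numbers do not pair the libraries, as 1 of 10 libraries correlated best with a library of its own number in another group, so the block result is no measure of a weaker effect. Over all genes, the fold criterion took the calls from 7893 to 3507 (EST in Vector cells), 7987 to 3722, 2448 to 591 (SREBP2 without and with EST) and 6591 to 3158 (interaction). For EST in SREBP2 cells the count over all genes went from 0 to 12 with DESeq2, 22 without a filter, 8 with only the compared libraries, 18 without Vector+EST library 5 and 1567 without both libraries 1. The filter of 10 counts in every library left out Scd1. Of 80 group means under other scalings, 8 moved by more than 1 SD. Depth limits Scd1 in the Vector groups, at 1.03 to 5.14 counts. The causes were not tested.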
